A study of Mus musculus with 8 samples.

Results

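Replication-dependent histone genes encode the bulk of the proteins around which DNA is wound. All rows of the expression table whose gene symbol starts with Hist1h, Hist2h, Hist3h or Hist4h were taken, which gave 40 of 19703 genes. Of these, 5 encode the linker histone H1, 8 encode H2A, 11 encode H2B, 3 encode H3 and 13 encode H4. The Hist1 cluster on chromosome 13 holds 31 of them, the Hist2 cluster on chromosome 3 holds 6, the Hist3 cluster on chromosome 11 holds 2 and Hist4 on chromosome 6 holds 1. The members were chosen by symbol and not by their values. Only 7 of the 40 had a mean of at least 10 normalized counts over 7 libraries (17.5%, against 56.3% of all genes in the table). A normalized count is a read count divided by 1 size factor per library.

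The RNA came from regulatory T cells (Tregs), titled as wild type (WT) in every sample, sorted from mice of the strain Foxp3-GFP, in which green fluorescent protein reports the Treg factor Foxp3, and grown with beads that trigger CD3 and CD28. Every group received IL6, IL23 and IL1B, cytokines that push T cells towards the Th17 state, and was taken on day 6. The untreated group (4 libraries) had no further agent. The other group (3 libraries) also received FcCD70, by its name an Fc fusion of CD70, the ligand of the costimulatory receptor CD27. The question behind the comparison, from the title of the series, is what CD27 signalling does to transcription in Tregs under Th17 conditions. Groups were taken from the sample titles, because the treatment field gave the opposite treatment in 8 of 8 samples, so each direction below rests on the titles. The labels do not say whether replicates came from separate mice, and the p-values therefore measure only the spread between these libraries. In bulk RNA, fewer cells in S phase and less histone RNA in each cell cannot be told apart.

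These genes are transcribed mainly in S phase, when new DNA needs new nucleosomes. Their mRNAs usually end just after a short hairpin, the histone stem-loop, instead of in a poly(A) tail. The stem-loop binding protein Slbp holds that hairpin, and the U7 small nuclear ribonucleoprotein directs the cut behind it. Some histone genes can also be read through to a conventional polyadenylation signal further downstream, and such transcripts are more common in cells that have stopped dividing or are differentiating. The libraries were made with a kit for poly(A) mRNA, so the values below are those of the transcripts that such a kit captures and not of all histone mRNA.

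The 3′ ends are shown because the capture depends on them. In the mouse annotation GENCODE M21 (build GRCm38), 38 of the 40 genes were matched by gene ID (Hist1h2bh and Hist1h2bm were not). The stem-loop was searched for on the sense strand of each transcript as the 16 bases GGNNNTTNNNANNNCC, with positions 3 to 5 able to pair with positions 12 to 14 (G with T allowed). It was present in 6 of the 7 genes with a mean of at least 10 normalized counts and in 21 of the 31 matched genes below it, against 1.60% of 21951 protein-coding genes. Of the 31, 8 have annotated transcripts that stop at the stop codon, so a stem-loop behind it could not be found in them. The stretches follow 5′ to 3′ in the sense of each gene, with the stem-loop in capitals, and the last is a gene below 10 for comparison.
Hist1h1c: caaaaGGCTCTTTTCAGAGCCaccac
Hist3h2a: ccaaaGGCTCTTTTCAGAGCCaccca
Hist1h4i: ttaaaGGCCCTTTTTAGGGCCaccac
Hist1h2be: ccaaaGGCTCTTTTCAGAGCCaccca
Hist3h2ba: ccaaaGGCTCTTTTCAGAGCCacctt
Hist1h1e: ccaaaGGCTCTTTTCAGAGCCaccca
Hist1h2bj: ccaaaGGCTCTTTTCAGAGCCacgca

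In that order the capitals lie at chr13:23739512-23739527 (plus strand), chr11:58955172-58955187 (plus), chr13:22040966-22040981 (minus), chr13:23585531-23585546 (minus), chr11:58949349-58949364 (plus), chr13:23621782-23621797 (minus) and chr13:22043638-22043653 (plus), all downstream of the coding sequence. The H1, H2A and H2B genes shown share the same 16 bases, while the H4 gene Hist1h4i has another stem. What differed more was how far the annotated transcript runs on. Behind the stem-loop it went on for 840 bases in Hist1h1c, 1643 in Hist3h2a, 330 in Hist1h4i, 1861 in Hist1h2be, 169 in Hist3h2ba and 1153 in Hist1h1e, but for only 23 bases in Hist1h2bj. All 6 genes with a mean of at least 10 and a stem-loop had 60 or more bases behind it. Of the 21 genes below 10 with a stem-loop, 11 had 60 or more and 10 had fewer.

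The other ending was searched for as AATAAA or ATTAAA, the common polyadenylation signals, in the last 50 bases of an annotated transcript on the sense strand. It was present in 6 of the 7 genes with a mean of at least 10 and in 8 of the 31 matched genes below it (25.8%), against 80.7% of all protein-coding genes. Hist1h1e was the member above 10 without it. The signals of the 6 genes are given in capitals.
Hist2h2be: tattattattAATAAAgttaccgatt
Hist1h1c: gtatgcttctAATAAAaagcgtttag
Hist3h2a: gtatatgcccAATAAAataagagtac
Hist1h4i: ttctgtttacATTAAAagtattctat
Hist1h2be: tgtgttccttATTAAAgcattcctga
Hist3h2ba: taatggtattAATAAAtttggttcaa

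These capitals lie at chr3:96223717-96223722 (plus), chr13:23740342-23740347 (plus), chr11:58956797-58956802 (plus), chr13:22040651-22040656 (minus), chr13:23583684-23583689 (minus) and chr11:58949507-58949512 (plus), again in the 3′ untranslated region. Hist2h2be, the most counted member, had the polyadenylation signal and no match to the stem-loop motif. A match, or its absence, describes only these letters in these annotated transcripts. The annotated length also differed, with a median of 1930 bases in the 7 genes (614 to 4446) and 508 in the 31 (312 to 2863). In 8 of the 31 the annotation stopped at the stop codon, and in 0 of the 7. Those 8 have no annotated 3′ untranslated region in which either ending could be found, and they count above among the genes without it. The annotated end was thus longer, and more often held a polyadenylation signal, among the genes that were counted. Longer transcripts can also collect more reads, and transcript models are drawn from RNA that was itself often captured by its tail. The part of either in these counts was not tested.

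**Figure D1:**
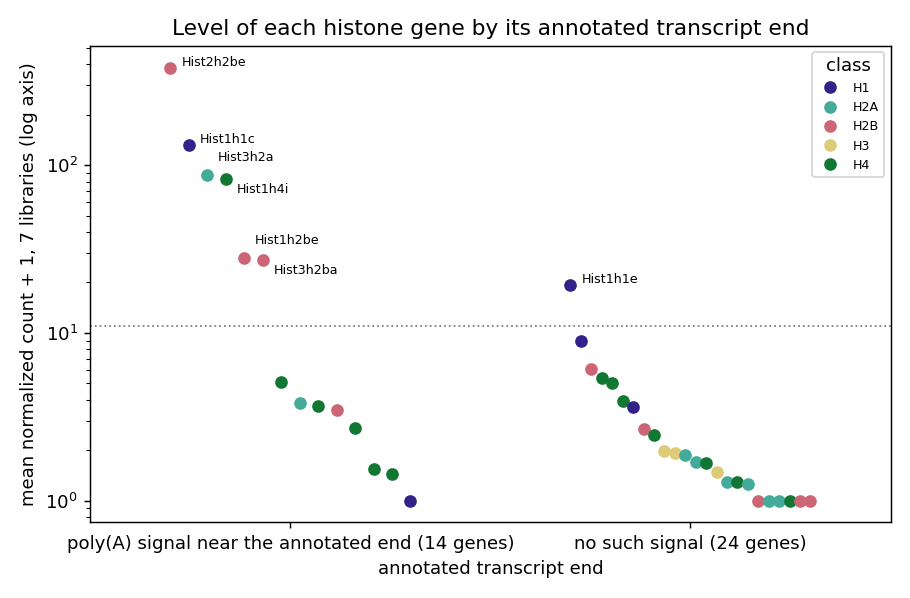
Mean normalized count plus 1 over 7 libraries (log axis) for the 38 annotated histone genes, split by whether AATAAA or ATTAAA lies in the last 50 bases of an annotated transcript, with 1 point per gene coloured by histone class. Above the dotted line (a mean of 10 normalized counts) lie 6 genes with the signal and 1 without it, Hist1h1e.

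Many histone genes are near copies of each other, so some reads can map to several of them. Of the distinct 50-base stretches of each gene's transcripts, a median of 22.1% also occurred in another gene among the 7 (0 to 32.0%) and 40.1% among the 31 (0 to 89.8%). Hist2h2be and Hist1h1b had 0% shared, while Hist1h4m had 89.8%. How the authors' counting treated reads with several matches is not given in the sources used here. Low values of members with many shared stretches are therefore uncertain. Hist1h2be and Hist1h1e also share exon bases on the same strand, and Hist3h2a overlaps Trim17 on the same strand and Gm44313 on the other. Reads in those overlaps cannot be assigned to 1 gene with certainty.

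The promoters of 35 members were matched in the RefSeq table of GRCm38.p6 (250 bases before to 50 after the start, both strands searched). The octamer ATTTGCAT is an element long known from H2B promoters and bound by Oct1. It was present in 10 of the 35 members (28.6%), in 6 of 8 H2A genes, 4 of 8 H2B genes and no other class. Of all 27025 genes with a promoter there, 1.97% had it in at least 1 promoter. CCAAT was present in 26 (74.3%, against 41.1%), including every H1, H2A, H2B and H3 member matched but only 3 of 12 H4 genes. TATAAA was present in 23 (65.7%, against 15.7%). H2A and H2B genes often lie head to head and can share 1 promoter, so these counts are not independent.

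Between 18159685 and 23527899 reads were assigned to genes per library. The 9 Treg and T cell markers all had rows, and their sum was 93129 to 98891 normalized counts untreated and 87282 to 95848 with FcCD70. The FcCD70 library numbered 2 stood apart: Foxp3 was at 2788 there and at 4811 to 6585 in the other 6. B cell markers summed to 33352 to 36485 and 33371 to 37440, nearly all of it Ighm (32628 to 36720). CD8 T and NK cell markers summed to 118 to 190 and 155 to 201, with Ncr1 at 0, myeloid markers (4 of 7 with a row) to 42.9 to 78.7 and 10.4 to 62.9, and red cell markers (3 of 4) to 0 to 1.74 and 0 to 0.882. The part of these differences in the histone values was not tested.

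The H2B genes carried most of the reads. Hist2h2be (chr3:96221119-96223738, plus strand, a gene of 1 exon) alone held 47.4% of all normalized counts of the 40 genes. It stood at 460, 402, 311 and 358 normalized counts in the untreated libraries numbered 1 to 4 and at 406, 457 and 278 in the FcCD70 libraries numbered 1 to 3. The groups overlapped, with means of 383 ± 63.6 (SD, n = 4) and 380 ± 92.4 (SD, n = 3). Counting error alone gave 95% Poisson intervals of 417 to 506 for the untreated library numbered 1 and 278 to 347 for that numbered 3.

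Hist1h2be, the H2B gene of the Hist1 cluster at chr13:23583670-23621124 (minus strand, 2 exons), had 31.9, 27.2, 12.6 and 13.1 normalized counts untreated and 49.7, 41.6 and 12.3 with FcCD70. The untreated libraries numbered 1 and 2 were above those numbered 3 and 4. With FcCD70 the libraries numbered 1 and 2 were above that numbered 3. Hist3h2ba, an H2B gene of the small Hist3 cluster (chr11:58948920-58949533, plus strand), had 13.2, 6.05, 33.0 and 44.4 untreated and 30.0, 27.0 and 30.9 with FcCD70. Here the untreated libraries numbered 1 and 2 were the low ones, while the FcCD70 libraries lay close together (29.3 ± 2.06, SD, n = 3, against 24.2 ± 17.7, SD, n = 4). The lowest of these values rests on 6 reads (95% Poisson interval 2.2 to 13.2 normalized counts).

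Among H2A genes 1 reached a mean of 10. Hist3h2a (chr11:58954685-58956830, plus strand), the neighbour of Hist3h2ba, had 101, 61.6, 94.2 and 86.2 normalized counts untreated and 96.3, 104 and 60.8 with FcCD70. A single library in each group was low, number 2 untreated and number 3 with FcCD70, and the means were 85.8 ± 17.3 (SD, n = 4) and 87.2 ± 23.2 (SD, n = 3). Hist3h2a and Hist3h2ba thus did not follow the same order of libraries, although the genes lie side by side.

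The linker histone H1 sits on the DNA between nucleosomes. Hist1h1c (H1.2, chr13:23738808-23740367, plus strand) had 188, 119, 98.1 and 131 normalized counts untreated and 140, 151 and 94.4 with FcCD70. The library numbered 3 was the lowest of its group in both groups. Hist1h1e (H1.4, chr13:23620629-23622558, minus strand) had 29.7, 27.2, 6.80 and 14.8 untreated and 8.29, 18.0 and 23.8 with FcCD70. Its values spread widely within each group (19.6 ± 10.8, SD, n = 4, and 16.7 ± 7.84, SD, n = 3). The untreated libraries numbered 1 and 2 were high for this gene, while the FcCD70 library numbered 1 was low. Hist1h1b (H1.5) lay just below the threshold with a mean of 7.93, and its highest value was 17.6 in the untreated library numbered 1.

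H4 has more genes with a row than any other class here, yet 1 of the 13 reached the threshold. Hist1h4i (chr13:22040636-22041362, minus strand) had 91.3, 110, 49.5 and 56.6 normalized counts untreated and 68.4, 139 and 60.8 with FcCD70. The library numbered 2 was the highest in each group, and the group means were 76.9 ± 28.7 (SD, n = 4) and 89.5 ± 43.3 (SD, n = 3). Hist1h4c had 15.4 in the untreated library numbered 1 and at most 4.04 in the other libraries with a column. None of the 3 H3 genes with a row reached a mean of 10: Hist1h3d, Hist1h3f and Hist2h3b together came to between 0 and 4.14 normalized counts in a library. H3 genes without a row could not be assessed.

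**Figure D2:**
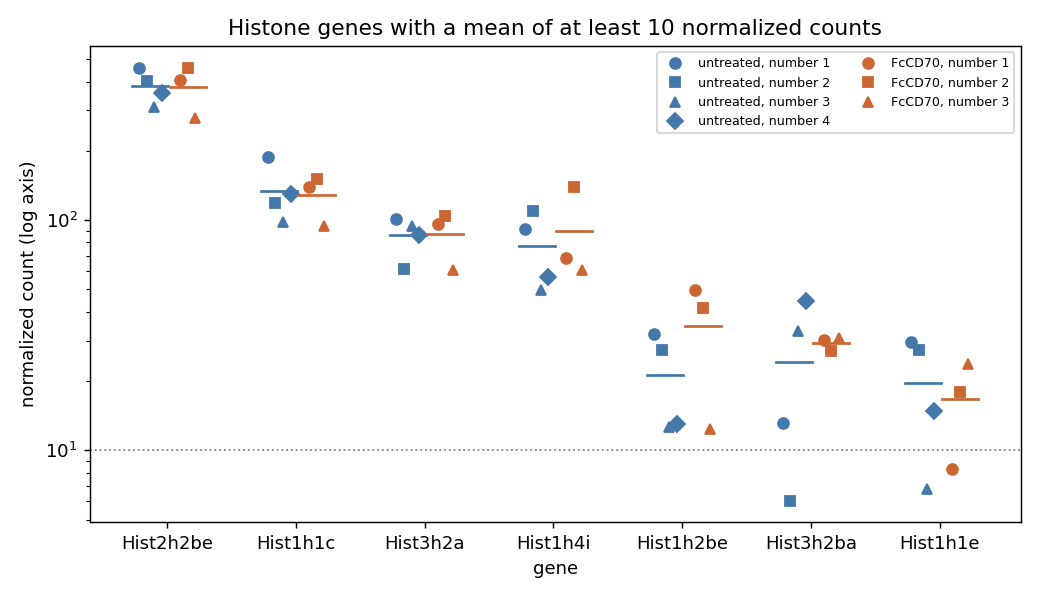
Normalized count (log axis) of the 7 histone genes with a mean of at least 10, with 1 point per library, blue for untreated (n = 4) and orange for FcCD70 (n = 3), the symbol giving the replicate number, the horizontal bars the group means and the dotted line 10 normalized counts. The groups overlap for each gene, from Hist2h2be (278 to 460) to Hist1h1e (6.80 to 29.7).

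The number of members above 10 normalized counts was 10, 6, 6 and 7 in the untreated libraries numbered 1 to 4, and 6, 8 and 7 in the FcCD70 libraries numbered 1 to 3. In every library the count was thus a small part of the 40. Hist2h2be, Hist1h1c, Hist3h2a, Hist1h4i and Hist1h2be were above 10 in each of the 7 libraries, and Hist1h1b, Hist1h4c and Hist1h1a passed 10 in at least 1 library without a mean of 10. The members nearest the threshold were Hist1h1e (mean 18.4) and Hist3h2ba (26.4) above it and Hist1h1b (7.93) and Hist1h2bj (5.06) below it.

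Of the 33 members below 10, 26 had reads in at least 1 library and 7 had none: Hist1h1t and Hist1h2ba, known from male germ cells, and Hist1h2aa, Hist2h2ab, Hist1h4n, Hist1h2bl and Hist2h2bb. A count of 0 allows up to 3 reads, which was 2.61 to 3.37 normalized counts in a library (counting error only), so expression below that was not detectable at this depth. The 33 together came to between 37.9 and 73.7 normalized counts in a library, with group means of 54.8 ± 14.7 (SD, n = 4) without FcCD70 and 47.8 ± 6.28 (SD, n = 3) with it. The 7 genes above held 93.6% of all member counts. Hist1h2bp had reads in 2 libraries, both FcCD70, with 9.32 in number 1 and 7.86 in number 2, and was at 0 in the FcCD70 library numbered 3 and the 4 untreated libraries. Hist1h2bp was singled out after its values were seen. It did not reach the mean of 10 needed for the test, and in the authors' deposited table its p was 0.209. The groups did not overlap for Hist1h2ae (1.10 to 2.02 untreated, 2.25 to 6.21 with FcCD70) and Hist1h4f (0 to 1.10 and 2.07 to 3.37). These rest on 20 and 10 reads over 7 libraries and were also untested here. Their p in the authors' deposited DESeq2 table was 0.336 and 0.230. Among genes tested the groups failed to overlap for 2.53%.

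Levels can be compared between genes only per length. Per kilobase of annotated exon, Hist2h2be had 146 normalized counts, Hist1h4i 113, Hist1h1c 84.3, Hist3h2ba 42.9, Hist3h2a 40.3, Hist1h1e 9.52 and Hist1h2be 6.06, against a median of 173 over 11076 tested genes with a length. Even the highest member by this measure lay above only 45.4% of them. Hist1h2be came last because its annotated exons add up to 4446 bases. The replication-independent variants are mostly made outside S phase as well and mostly carry poly(A) tails. Most stood higher than Hist2h2be on the same scale. H3f3b, which encodes H3.3, had 3156 normalized counts per kilobase, H2afz, which encodes H2A.Z, had 2489 and H2afy (macroH2A1) had 1570. H1f0, the linker histone of resting cells, had 712 and H2afv had 671. Cenpa, the centromeric H3, had 307, H2afx had 306 and H2afj had 262. H2afy2 (2.37) and H1fx (0.700) were the variants at a low level, and H2afy3 and H3f3a were not analysed here.

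No histone gene was called higher or lower with FcCD70, and for each of the 7 that could be tested the difference was within the spread between libraries. In a limma fit across 11083 genes with the replicate number as a block, 0 of 7 passed an adjusted p under 0.05, and 0% of all genes tested did. At an unadjusted p under 0.05 there were 0 of 7 members, against 188 genes, 1.7% of all tested. With edgeR 0 of the 7 had an unadjusted p under 0.05 as well (1.52% of all genes), and likewise with DESeq2 (1.27%), where 1 gene that is no member passed the adjusted threshold (0.00902% of all tested). The libraries of the groups overlapped for 7 of 7 members, and they failed to overlap for 2.53% of all genes. The fitted difference was above 0 for 4 members and below 0 for 3, with a median of 0.02 on the log2(normalized count + 1) scale, against a median of 0.00 over all genes tested, of which 49.1% were above 0. Without the FcCD70 library numbered 2 (no block) 0 passed, and the median was -0.17.

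The differences with FcCD70 (log2 scale, FcCD70 minus untreated, ± SE) were measured most closely for the genes with the most reads. For Hist2h2be the difference was -0.05 ± 0.17, with a 95% interval from -0.43 to 0.33. A difference inside that interval could not be resolved for this H2B gene with these libraries. Hist1h1c differed by -0.05 ± 0.25 (interval -0.61 to 0.51), Hist3h2a by 0.02 ± 0.32 (interval -0.71 to 0.75) and Hist1h4i by 0.07 ± 0.30 (interval -0.59 to 0.74). The rarer transcripts were less well measured. Hist1h2be differed by 0.40 ± 0.46 (interval -0.65 to 1.44) and Hist1h1e by -0.21 ± 0.70 (interval -1.78 to 1.36). Hist3h2ba had the largest difference of the 7, 1.01 ± 0.54 (interval -0.20 to 2.21), which did not pass the test. With no block it was 0.61, and then 0.45 without the untreated library numbered 1, 0.11 without that numbered 2 and 0.57 without the FcCD70 library numbered 3. In those last 3 fits Hist1h2be had the larger difference (0.80, 0.73 and 1.18). The adjusted p was 0.9998 for each of the 7 genes in limma.

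The pairs of libraries with the same number did not move together. For Hist3h2ba the difference was 1.13 in pair 1 and 1.99 in pair 2 but -0.09 in pair 3, and it was the untreated libraries numbered 1 and 2 that stood low for this gene. For Hist1h1e the pairs gave -1.73, -0.57 and 1.67. Hist2h2be gave -0.18, 0.19 and -0.16, and Hist3h2a gave -0.07, 0.75 and -0.62. Of the 7 genes tested, 0 were higher with FcCD70 in 3 of 3 pairs, against 9.03% of all genes tested, and 0 were lower in 3 of 3, against 9.61%. The median over the 7 genes was -0.18 in pair 1, 0.34 in pair 2 and -0.06 in pair 3.

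The fourth sample titled FcCD70 was not among the columns, and its values were rebuilt from the authors' mean over 8 libraries. It had 351 normalized counts of Hist2h2be, 97.2 of Hist1h1c, 98.2 of Hist3h2a, 71.7 of Hist1h4i, 13.7 of Hist1h2be, 50.1 of Hist3h2ba and 13.7 of Hist1h1e. Against the untreated library numbered 4, the differences ran from -0.42 for Hist1h1c to 0.34 for Hist1h4i, with a median of 0.07. In the authors' deposited table, which rests on those 8 libraries, 34 members had a fold change and 0 of them a p under 0.05, against 1.45% of 14728 genes. The smallest p of a member in the authors' deposited table was 0.149, for Hist3h2ba, with a log2 difference of 0.76 once turned to FcCD70 minus untreated.

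**Figure D3:**
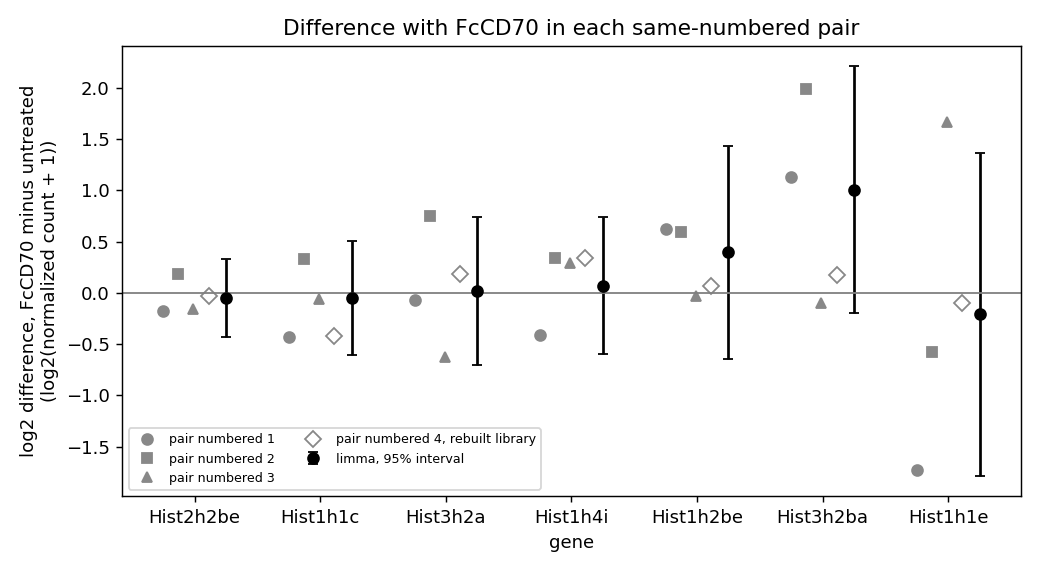
Difference in log2(normalized count + 1), FcCD70 minus untreated, for the 7 histone genes: grey filled symbols for the 3 same-numbered pairs, the open diamond for pair 4 with the rebuilt library, and the black point and bar for the limma estimate with its 95% interval. Every interval crosses 0, from the narrow bar of Hist2h2be (-0.43 to 0.33) to the wide bar of Hist1h1e (-1.78 to 1.36).

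No member passed the test of the replicate number either. Limma's F test of the number called 0 of the 7 members and 15 genes, 0.135% of all tested. At an unadjusted p under 0.05 it gave 1 of 7 members, Hist1h4i (adjusted p = 0.614), against 8.02% of all genes. In the same limma F test the adjusted p was 0.654 for Hist1h2be, 0.691 for Hist2h2be, 0.752 for Hist3h2ba and 0.817 for Hist1h1c, and it was largest for Hist3h2a (0.974) and Hist1h1e (0.981). The count of 1 of 7 at an unadjusted p under 0.05 depended on the fit. It was 0 with edgeR or DESeq2 and 2 without the libraries numbered 1. With the rebuilt library, or without the untreated library numbered 4, it was 3. The shares of all genes in those fits are not given here.

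The libraries numbered 1 and 2 and those numbered 3 and 4 are set side by side here as a description with no test, because earlier results of these data had already shown that these numbers part. For 4 of the 7 members the libraries of the 2 sets did not overlap, against 22.2% of all genes. Hist2h2be ran from 402 to 460 in the libraries numbered 1 and 2 and from 278 to 358 in those numbered 3 and 4. Hist1h4i ran from 68.4 to 139 and from 49.5 to 60.8, and Hist1h2be from 27.2 to 49.7 and from 12.3 to 13.1. Hist3h2ba went the other way, from 6.05 to 30.0 and from 30.9 to 44.4. With the rebuilt library Hist1h4i overlapped, and Hist2h2be, Hist1h2be and Hist3h2ba did not. All members summed came to 989, 807, 643 and 756 normalized counts untreated and to 842, 993 and 606 with FcCD70, with means of 799 ± 144 (SD, n = 4) and 814 ± 195 (SD, n = 3). The library numbered 3 had the lowest sum in both groups.

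The other genes of histone supply were taken from lists based on known functions. Of 20 genes for the processing and transcription of histone mRNA, 0 passed the test for FcCD70, with 11 above 0, 9 below and a median log2 difference of 0.02. Slbp, which binds the stem-loop, had 1644 ± 41.7 normalized counts untreated (SD, n = 4) and 1901 ± 404 with FcCD70 (SD, n = 3), a log2 difference of 0.19 ± 0.14 (SE). The high mean came from the FcCD70 library numbered 2, at 2362, while the other FcCD70 libraries had 1732 and 1608 and the untreated ones 1587 to 1679. Npat, the coactivator of histone gene transcription, had a difference of 0.04 ± 0.20 (SE). Casp8ap2, a partner of Npat in the histone locus body, had -0.13, Ccne1, the cyclin whose kinase activates Npat, had -0.20, and Hinfp, which binds H4 promoters, had -0.17. Zfp473, a part of the U7 processing machinery, had 0.12, and the exonuclease Dis3l2 had 0.06. In the F test of the number 0 of these 20 passed (0.135% of all genes did), and 1 had an unadjusted p under 0.05 (8.02% of all genes).

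Of 22 histone chaperones and related supply genes 0 passed for FcCD70 (11 above 0, 11 below, median log2 difference 0.01). Chaf1a, a subunit of the chaperone that places new H3 and H4 behind the replication fork, had -0.35, Hira, which places H3.3 outside replication, had 0.21, its partner Cabin1 had -0.26, and Hjurp, which loads the centromeric H3, had -0.22. Rbbp4, a histone-binding subunit of several such complexes, had 0.17, and Tonsl, which reads newly placed H4, had 0.13. In the F test of the number 0 of the 22 passed (0.135% of all genes did), and 4 had an unadjusted p under 0.05 (8.02% of all genes). Of the replication-independent variants 8 could be tested, and 0 passed. All 8 were above 0, against 49.1% of all genes tested, with a median of 0.12. The medians of their pairs were -0.15, 0.51 and 0.00, with pair 2 the highest. Their summed level was 37671 normalized counts in the FcCD70 library numbered 2 and 26652 to 29988 in the other 6. H1f0, the member with an unadjusted p under 0.05 in limma (1.7% of all genes), had a log2 difference of 0.35 ± 0.15 (SE). H2afj had 0.29 and H3f3b 0.17.

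Of 31 DNA replication and S phase genes 0 passed for FcCD70, with 6 above 0, 25 below and a median log2 difference of -0.12. Over all genes tested 49.1% were above 0. The medians of the pairs were -0.32, -0.03 and 0.04 and pair 1 had the lowest. Rrm2, the ribonucleotide reductase subunit made in S phase, had -0.38. It was the gene of this list with an unadjusted p under 0.05 in limma (1.7% of all genes). Mki67 had -0.43 and the helicase subunit Mcm5 had -0.28. Gins4 (0.25), Rfc3 (0.07) and Gins3 (0.06), which serve the replication fork, were above 0. By replicate number 20 of the 31 had an unadjusted p under 0.05, against 8.02% of all genes, and 1, the S phase cyclin Ccna2, passed (adjusted p = 0.0411 in limma's F test). With edgeR, or with no filter on low values, 0 genes passed for the number, so the call of Ccna2 was lost there. Ccna2 had 1743, 1487, 587 and 784 normalized counts untreated and 1276, 1413 and 531 with FcCD70. The libraries numbered 3 were the lowest of each group, as they were for Hist2h2be, Hist1h1c, Hist1h4i and Hist1h2be. For Hist3h2a only the FcCD70 library numbered 3 was the lowest of its group. For Hist1h1e that library was the highest FcCD70 one (23.8). Hist3h2ba was not lowest in either library numbered 3 (33.0 untreated and 30.9 with FcCD70). Relative to each gene's mean, the median of the 7 histone genes in these libraries was -0.38 untreated and -0.43 with FcCD70 on the log2 scale, and that of the S phase genes was -0.36 and -0.38. In the untreated library numbered 1 these medians were 0.29 and 0.38. The part of cell cycle state in the histone values was not tested. No gene of a list of 18 other RNAs without a poly(A) tail had a row in the table, so they gave no comparison for the capture.

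**Figure D4:**
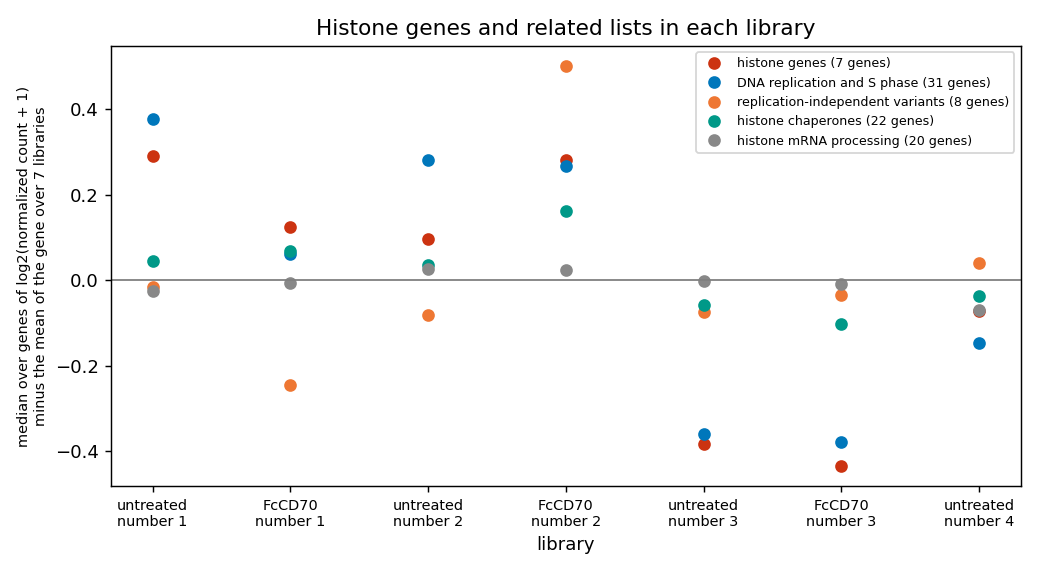
Median over genes of log2(normalized count + 1) minus the gene's mean over 7 libraries, with 1 point per list and library and the number of genes in the legend. The 7 histone genes and the 31 S phase genes lie below -0.3 in both libraries numbered 3, the processing genes stay near 0, and the replication-independent variants reach 0.50 in the FcCD70 library numbered 2.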

How the data were processed

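Poly(A) RNA from cultured mouse Tregs was made into libraries with a stranded Illumina TruSeq kit for mRNA, as the labels' protocols say. The submitters' processing notes name GRCm38.p4 as the build, and TopHat2, HTSeq, SAMtools and DESeq2 as tools. Which annotation release and strand setting they used is not given in the sources. The deposited library columns are a signal: read counts that the authors divided by 1 size factor per library. All values were whole multiples of 1 step (100% within 0.01), so the reads behind them were recovered. The authors' log2 fold change, score (Wald statistic) and p-values come from DESeq2, per the file headers, with the sign coded as untreated minus FcCD70.

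The test was limma (3.58.1, R 4.3.3) with its trend option, run on log2(value + 1) for the 11083 genes whose mean in 7 libraries was at least 10, with the replicate number as a block because the authors' table is named as paired, and Benjamini-Hochberg adjusted p under 0.05 over all these genes. The untreated library numbered 4 has no partner, so differences rest on 3 pairs, with 2 residual degrees of freedom. The log2(value + 1) scale understates changes of low genes. Alternatives were no block, edgeR (4.0.16), DESeq2 (1.42.0), other pseudocounts and filters, libraries left out, and the rebuilt library. The scripts were tested on simulated data. Members named with values in every library were those with a mean of at least 10. List genes named were up to 3 in each direction with the smallest p, with Slbp and Npat. Hist1h2bc, also on the plan, was not analysed here. The members, lists and tests were chosen with earlier results of these data known.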

Additional observations from a re-analysis of the deposited data

How the results depend on the processing

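Under each of 20 alternatives (no replicate block, edgeR with TMM or DESeq2 size factors, DESeq2, pseudocounts of 0.5 and 5, no filter or a mean of at least 50, libraries left out, the rebuilt library added) 0 histone genes passed for FcCD70, and under 12 alternatives 0 passed for the replicate number. The median log2 difference of the members was 0.02 in the fit reported and 0.01 with no replicate block, and ranged from -0.17 to 0.28. With no filter 33 members could be tested, with a median of -0.05. Of these, 1 had an unadjusted p under 0.05 for FcCD70 in limma, against 314 of 14579 genes. Leaving out libraries turned the sign of 5 genes: the differences then ranged from -0.17 to 0.19 for Hist2h2be, -0.24 to 0.16 for Hist1h1c, -0.35 to 0.34 for Hist3h2a, -0.17 to 0.42 for Hist1h4i and -1.15 to 0.55 for Hist1h1e, while Hist1h2be (0.21 to 1.18) and Hist3h2ba (0.11 to 1.56) stayed above 0. With both libraries numbered 1 left out, Hist2h2be was at 0.013, Hist1h1c at 0.14 and Hist1h4i at 0.31, and without number 2 Hist1h4i was at -0.061. With no block, leaving out the untreated library numbered 1 gave 0.069 for Hist2h2be and 0.13 for Hist1h1c, and leaving out that numbered 2 gave 0.0040 for Hist2h2be, -0.14 for Hist3h2a and 0.069 for Hist1h1e. Leaving out the FcCD70 library numbered 1 gave -0.080 for Hist3h2a and 0.26 for Hist1h1e, and that numbered 2 gave -0.14 for Hist3h2a. Among the 7 genes with a mean of at least 10, the lowest adjusted p for FcCD70 was 0.649. It was that of Hist1h2be in limma with no block and without the FcCD70 library numbered 3.

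Over all genes the calls for FcCD70 were 0 in the fit reported, 19 without replicate 2 and 6 without replicate 3, and calls for the replicate number were 15, against 0 with edgeR or no filter, 240 with DESeq2, 117 with the rebuilt library and 1809 without replicate 2. Deviations from the group means of same-numbered libraries correlated, across genes, at 0.30, 0.01 and 0.43 for numbers 1 to 3, and libraries of different numbers at -0.36 to 0.35 (0.26 for untreated 2 with FcCD70 1, 0.35 for untreated 4 with FcCD70 3), so the data do not show that numbers pair the libraries, and the block rests on the name of the authors' table. Depth limits the 33 genes below a mean of 10, most of which rest on a few reads.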
